A study of Mus musculus with 6 samples.

Results

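The MYC, MAX and MXD network is a family of transcription factors that pair with each other through a basic helix-loop-helix leucine zipper and compete for the same DNA sites. The 10 genes described here (Myc, Mycn, Max, Mxd1, Mxd3, Mxd4, Mxi1, Mnt, Mga and Mlx) were taken by name from the 19938 genes that had a probe set with exactly 1 gene symbol. Each of the 10 was measured by a single such probe set, so no choice between probe sets was needed.

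The arrays profiled leukaemic mouse B cells with and without gamma-catenin (junction plakoglobin, encoded by Jup), a junction protein and close relative of beta-catenin. The groups were 3 KO samples (genotype Jup-/-) and 3 WT samples (genotype Jup+/+), all on the C57BL/6 background and labelled as biological replicates, with 1 array each. In both, fetal liver cells of the genotype (CD45.2+) first rebuilt the blood of CD45.1+ mice. Marrow of these chimeras was then infected with a retrovirus that encodes the BCR-ABL1 fusion kinase and green fluorescent protein, and moved into lethally irradiated CD45.1+ hosts. At day 21 the fluorescent CD45.2+ B220+ BP-1+ B cells were sorted. The gene was missing from all cells of the donor embryo, not from B cells alone, and the ages of the animals are not given in the labels used here.

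MYC and N-MYC, the product of Mycn, bind the E-box CACGTG as dimers with MAX and activate growth, ribosome and metabolic genes. The MXD proteins and MNT also pair with MAX, occupy the same E-boxes and recruit the SIN3 corepressor with its histone deacetylases, so they oppose MYC. MLX is a second hub that pairs with some MXD proteins, with MNT and with the glucose-sensing Mondo proteins. In B-lineage cells MYC is a known driver of growth and of leukaemia, and BCR-ABL1 signalling is known to raise it.

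Of the 10 genes, the E-box itself lies in the start region of several. RefSeq (GRCm38.p6) start windows, each from 250 bases before to 50 bases after a transcription start, were at hand for 9 of the genes in 11 windows, and not for Myc. The letters CACGTG, which read the same on both strands, occurred in the windows of Max, Mxd4, Mnt and Mlx, that is in 4 of 11 windows, against 7.15% of the 32851 windows of all genes. The stretches around them are shown because all 4 genes encode proteins that themselves bind this sequence, with the E-box in capitals.
Max, chr12:76962234-76962263, minus strand: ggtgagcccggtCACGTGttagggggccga
Mxd4, chr5:34187912-34187941, minus strand: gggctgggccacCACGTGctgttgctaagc
Mnt, chr11:74830789-74830818, plus strand: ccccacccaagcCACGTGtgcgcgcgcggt
Mlx, chr11:101087238-101087267, plus strand: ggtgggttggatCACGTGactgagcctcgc
The E-box of Max spans its listed start (bases -3 to 3), that of Mlx lies at -40 to -35, that of Mnt at -123 to -118 and that of Mxd4 at -219 to -214. A match of letters is a description of the sequence and not of binding.

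The window of Mycn is shown whole up to its start, since Mycn had the largest difference of the network between KO and WT.
Mycn, chr12:12941837-12942086, minus strand: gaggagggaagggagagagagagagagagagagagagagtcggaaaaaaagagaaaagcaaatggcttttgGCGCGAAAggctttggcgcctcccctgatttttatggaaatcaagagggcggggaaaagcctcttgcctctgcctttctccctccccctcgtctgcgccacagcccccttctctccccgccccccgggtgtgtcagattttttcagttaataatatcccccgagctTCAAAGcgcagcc
The first capitals are a match, on the other strand, to the E2F letters TTTCGCGC at bases -179 to -172, which 0.323% of all windows hold. The second are a match, on the other strand, to the TCF/LEF core letters CTTTGA at bases -13 to -8, which 16.0% of all windows hold. In all 7 sets of letters were searched on both strands, and further forms of the E2F site were not among them. The variant E-box CACGCG (9.27% of all windows) occurred once, in Mga. The second E2F form TTTCCCGC (1.07%), the STAT form TTCNNNGAA (8.30%) and the ETS form CCGGAAG (8.86%) occurred in none of the 11 windows.

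Both MYC genes of the network had lower levels in KO cells, and the differences of the 8 other members lay within 0.16 of 0 on the log2 scale. Mycn was 1.68-fold lower in KO and Myc 1.39-fold lower, and in each of them every KO array lay below every WT array. Neither passed the test over all probe sets. The partners Max and Mlx had KO means lower by about 0.1 on the log2 scale, and the antagonists had KO means higher by up to 0.16. In limma, 0 of the 10 genes passed at an adjusted p under 0.05, against 0.119% of the 21789 probe sets tested (0.0505% higher and 0.0688% lower in KO). At an unadjusted p under 0.05, 2 of the 10 were lower and 0 higher, against 4.73% and 4.48% of all probe sets (9.22% in both directions). All KO arrays lay on 1 side of all WT arrays for 3 of the 10 genes (Myc, Mycn and Mxi1), against 14.0% of all probe sets. For 2 genes KO lay below WT, against 8.08% of probe sets, and for 1 it lay above, against 5.94%. The median log2 difference of the 10 genes was 0.05, and that of all probe sets -0.02.

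Myc (probe set 10424400) read 11.91, 11.40 and 11.64 in KO and 12.33, 12.01 and 12.05 in WT, as log2 expression after RMA, the authors' array normalization. The highest KO array lay just under the lowest WT array, and KO replicate 2 was the lowest of all. The KO mean was 11.65 ± 0.26 and the WT mean 12.13 ± 0.17 (SD, n = 3 each). The log2 difference was -0.48 (SE 0.14), with a 95% interval of -0.80 to -0.16, and did not pass (limma adjusted p = 0.346, unadjusted p = 0.00892). It was -0.35 without KO replicate 2 and -0.61 without KO replicate 1, the array nearest to WT, with adjusted p of 0.907 and 0.157 in limma.

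Mycn (probe set 10399421), the N-MYC gene of progenitor cells, read 8.10, 7.97 and 8.04 in KO and 8.99, 8.98 and 8.39 in WT. The KO arrays lay close together, whereas WT replicate 3 stood well below the other WT arrays. The KO mean was 8.04 ± 0.06 and the WT mean 8.79 ± 0.34 (SD, n = 3 each). The log2 difference was -0.75 (SE 0.16), with a 95% interval of -1.11 to -0.39, and did not pass (limma adjusted p = 0.166, unadjusted p = 0.00117). Without WT replicate 3 it was -0.95 and passed (limma adjusted p = 0.0205), which was the 1 call of a network member among the alternatives run. With each of the other arrays left out in turn it lay between -0.78 and -0.65.

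**Figure D1:**
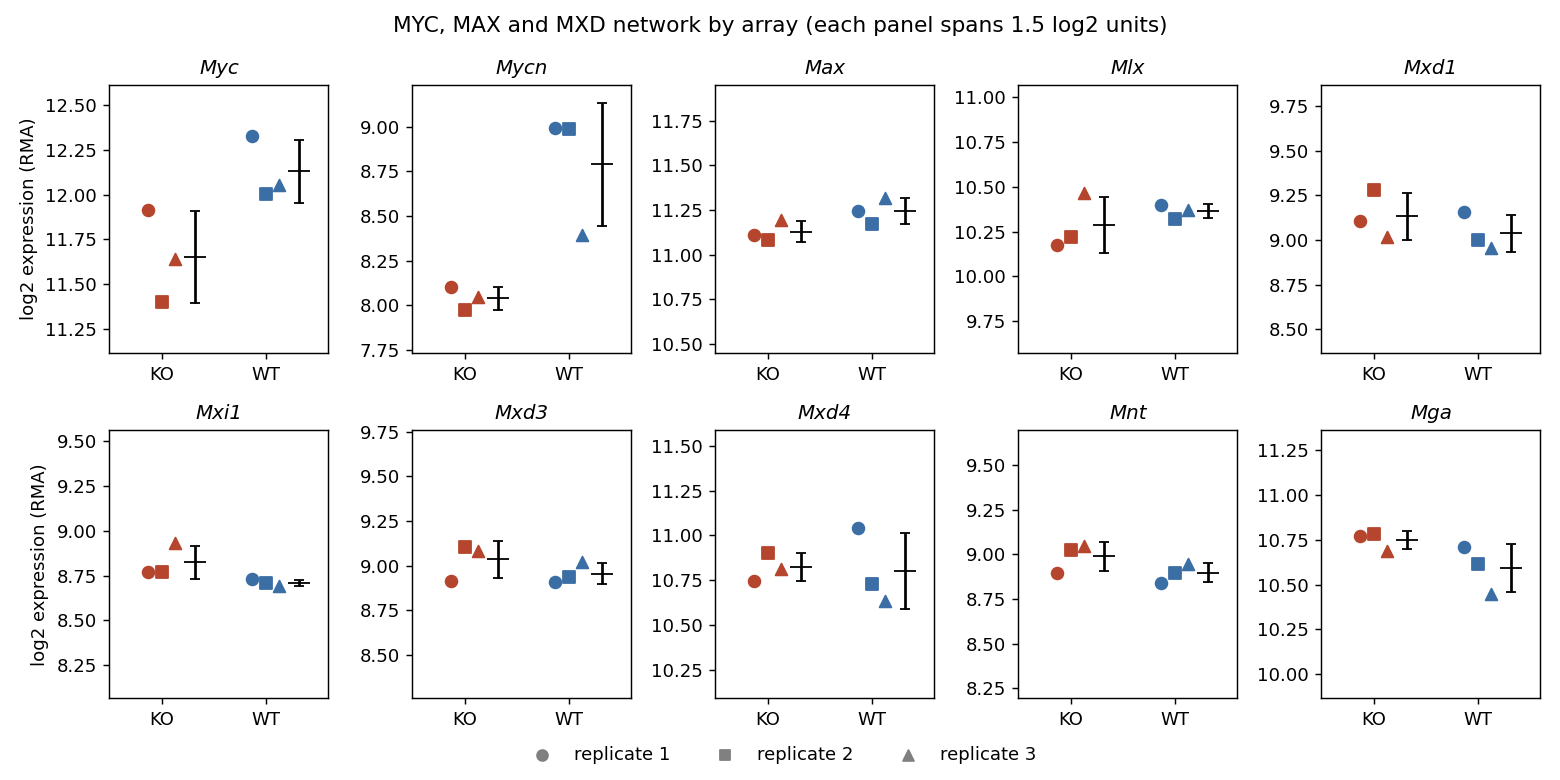
Log2 expression (RMA) of the 10 network genes in each KO (left, red) and WT (right, blue) array, with symbols for replicates 1 to 3 and a bar for the mean ± SD of 3 arrays; every panel spans 1.5 log2 units. The KO and WT points are apart for Myc, Mycn and, by a small margin, Mxi1, and overlap for the other genes.

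The third MYC gene, Mycl, which encodes L-MYC, was dim, and its groups overlapped. It measured 6.93, 7.10 and 6.98 in KO and 6.90, 6.97 and 7.06 in WT, below the array medians of 7.53 to 7.61. Its log2 difference was 0.03, with a 95% interval of -0.16 to 0.22. The noncoding gene Pvt1, the neighbour of Myc, measured 9.18, 8.88 and 8.84 in KO and 9.17, 9.34 and 8.999 in WT on its brighter probe set. The groups overlapped, and KO was at -0.21 relative to WT (SE 0.12, limma adjusted p = 0.685). A second, dim probe set of Pvt1 gave 0.02.

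MAX is the obligate partner of MYC and N-MYC and also pairs with the MXD proteins. Max measured 11.11, 11.08 and 11.20 in KO and 11.24, 11.17 and 11.31 in WT, so that only KO replicate 3 reached into the WT range. The log2 difference was -0.11, with a 95% interval of -0.29 to 0.06 (limma adjusted p = 0.734). Mlx, the parallel hub, measured 10.17, 10.22 and 10.47 in KO and 10.40, 10.32 and 10.37 in WT. KO replicates 1 and 2 were the lowest arrays and KO replicate 3 the highest. Its log2 difference was -0.08, with a 95% interval of -0.29 to 0.14 (limma adjusted p = 0.886). In the RefSeq gene order Mlx lies on the same chromosome as Jup, the gene targeted in the KO, with 26 protein-coding genes between them.

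The 4 genes of the MXD family encode small repressors that pair with MAX as cells stop dividing or differentiate. Mxd1, which is abundant in mature neutrophils, measured 9.11, 9.28 and 9.02 in KO and 9.15, 9.0 and 8.96 in WT, and the groups overlapped. Mxi1, also called MAD2, measured 8.77, 8.77 and 8.93 in KO and 8.73, 8.71 and 8.69 in WT. All KO arrays of Mxi1 were above all WT arrays, by a gap smaller than the spread within KO. Mxd3, the MXD member known from S phase, measured 8.91, 9.11 and 9.08 in KO and 8.91, 8.94 and 9.02 in WT. Mxd4 measured 10.75, 10.90 and 10.81 in KO and 11.04, 10.73 and 10.63 in WT, where the WT arrays enclosed all KO arrays. None of the 4 passed in limma, at log2 differences of 0.10 (SE 0.10, adjusted p = 0.844) for Mxd1, 0.11 (SE 0.08, adjusted p = 0.740) for Mxi1, 0.08 (SE 0.08, adjusted p = 0.853) for Mxd3 and 0.02 (SE 0.11, adjusted p = 0.980) for Mxd4. The upper ends of their 95% intervals were 0.31, 0.29, 0.27 and 0.28. The sign of Mxd4 turned with KO replicate 2, WT replicate 2 or WT replicate 3 left out, at -0.06 in the last case, and Mxd1 was at 0.02 without KO replicate 2.

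MNT and MGA are large antagonists that are present in dividing and resting cells alike. Mnt measured 8.89, 9.02 and 9.05 in KO and 8.84, 8.90 and 8.95 in WT, with a log2 difference of 0.09 and a 95% interval of -0.09 to 0.27 (limma adjusted p = 0.806). Mga, which also carries a T-box and works within the noncanonical Polycomb complex PRC1.6, measured 10.77, 10.78 and 10.69 in KO and 10.71, 10.62 and 10.45 in WT. Only WT replicate 1 reached the KO range. At 0.16 (SE 0.09), with a 95% interval of -0.05 to 0.36, Mga had the largest positive difference of the network, and it did not pass (limma adjusted p = 0.666).

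**Figure D2:**
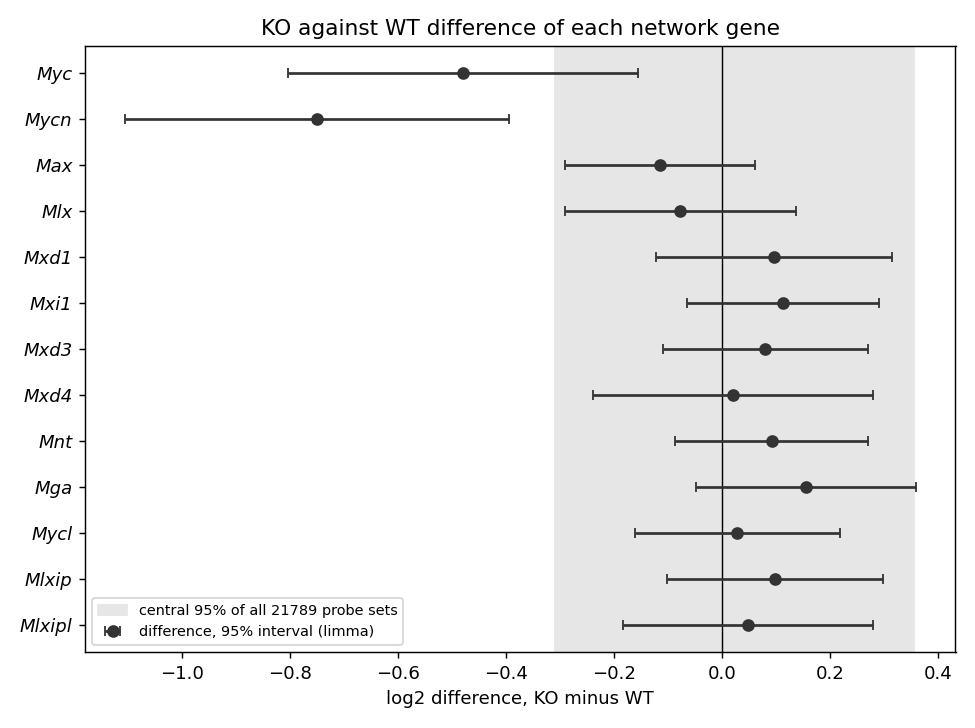
Log2 difference, KO minus WT, of the 10 network genes and of Mycl, Mlxip and Mlxipl, with 95% intervals from limma; the grey band holds the central 95% of all 21789 probe sets, from -0.31 to 0.36. The points of Myc and Mycn lie outside the band on the side of lower expression in KO, and the other 11 lie inside it.

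Set against the whole table, 205 probe sets had a log2 difference at or below that of Myc and 82 at or below that of Mycn, of 21789. By p-value Mycn ranked 150 and Myc 561. The intervals of the 8 other members reached no further than 0.29 below and 0.36 above 0. Changes larger than that lay outside these intervals, whereas smaller ones could not be resolved with 3 arrays a group.

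**Figure D3:**
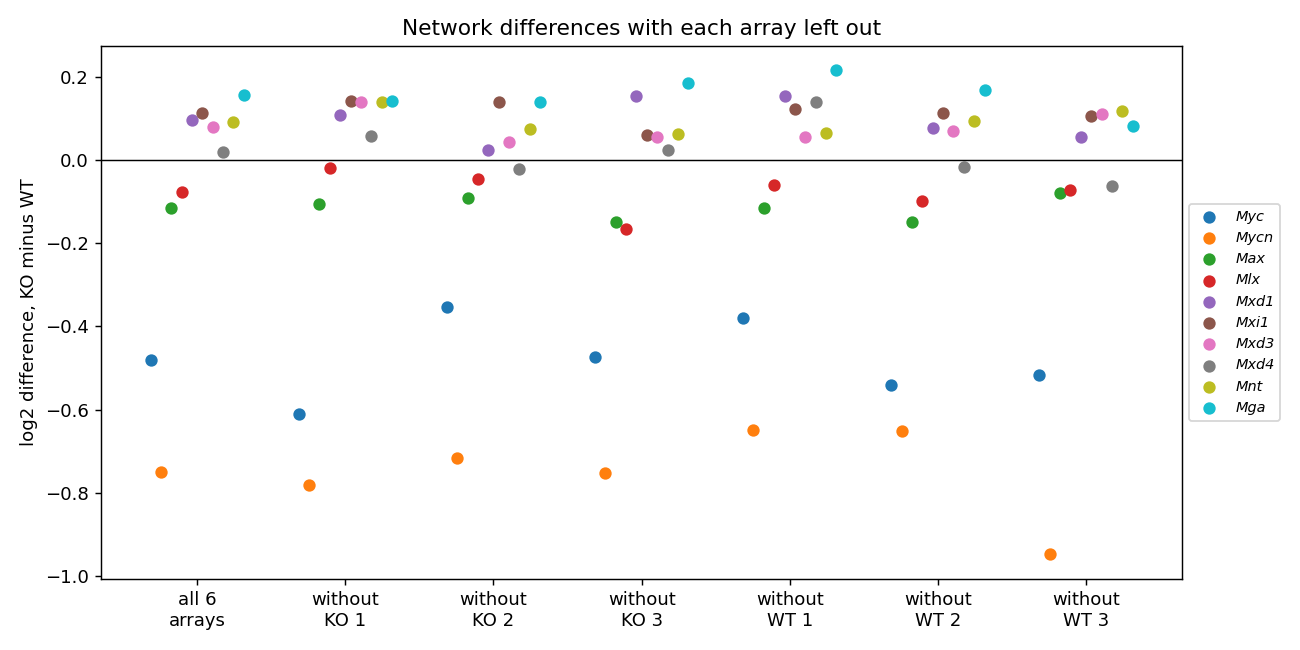
Log2 difference, KO minus WT, of each of the 10 network genes (coloured points) with all 6 arrays and with each array left out in turn. Myc and Mycn are the lowest points in every setting, Mycn reaches -0.95 without WT replicate 3, and Mxd4 crosses 0 in 3 settings.

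Most genes that MYC is known to activate had lower KO means, with no log2 difference below -0.39. Of 29 measured members of that list 25 had a lower KO mean, or 86.2%, against 55.8% of all probe sets, and their median log2 difference was -0.17. None passed in limma. Unadjusted, 3 were lower and 2 higher at p under 0.05, against 4.73% and 4.48% of all probe sets. The lowest was Bcat1, the cytosolic branched-chain aminotransferase, at 11.98, 11.71 and 11.75 in KO and 12.23, 12.22 and 12.16 in WT. The arrays of Bcat1 did not overlap, with KO below WT as in 8.08% of all probe sets. KO was at -0.39 relative to WT (SE 0.09, limma adjusted p = 0.218). Hspe1, the mitochondrial chaperonin HSP10, gave -0.28 and -0.27 on its 2 probe sets.

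The 2 members with the highest differences ran the other way. Ccnd2, the cyclin D2 gene, measured 12.35, 12.69 and 12.50 in KO and 12.02, 11.84 and 11.13 in WT, which is 0.85 higher in KO (limma adjusted p = 0.253). Tert, the catalytic subunit of telomerase, was 0.32 higher in KO (limma adjusted p = 0.435). The arrays did not overlap in either of them, with KO above WT as in 5.94% of all probe sets.

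The genes activated by MYC were uneven among the KO arrays. As a deviation from the WT mean, Myc was at -0.22, -0.73 and -0.49 in KO replicates 1, 2 and 3, and at 0.20, -0.12 and -0.08 in WT replicates 1, 2 and 3. The mean of the 29 activated genes was at 0.04, -0.17 and -0.17 in the KO arrays, and at 0.05, 0.03 and -0.09 in the WT arrays. KO replicate 1 had the highest Myc of the KO arrays and lay within the WT range for these genes, whereas among the WT arrays Myc was lowest in replicate 2 and the activated genes in replicate 3. Mycn was at -0.69, -0.82 and -0.75 in KO and at 0.20, 0.20 and -0.40 in WT. KO replicate 1 was also the highest KO array in the means of other lists, with 0.04, -0.03 and -0.10 in KO and 0.03, 0.03 and -0.06 in WT for the 9 proliferation genes, and 0.02, -0.08 and -0.09 in KO and 0.04, 0.00075 and -0.05 in WT for the 13 genes of the PRC1.6 complex. The median log2 difference of the list was -0.25 without KO replicate 1 and -0.11 without KO replicate 2.

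Genes that MYC is known to lower had higher KO means in 4 of 7 measured, against 44.2% of all probe sets, with a median of 0.12. Unadjusted, 3 were higher and 0 lower at p under 0.05, against 4.48% and 4.73% of all probe sets, and 0 passed in limma. Ndrg1, a stress and hypoxia response gene, measured 9.12, 11.06 and 10.86 in KO and 8.72, 8.62 and 8.999 in WT. KO replicate 1 was far below the other KO arrays and only just above WT. Its log2 difference was 1.57 (SE 0.44) and did not pass (limma adjusted p = 0.312). Without KO replicate 1 it was 2.18 and passed (limma adjusted p = 0.00492), but this omission takes out the discordant KO array and with it most of the KO spread. Leaving out KO replicate 2 or 3 instead lowered the difference.

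Cdkn1b, which encodes the cell cycle inhibitor p27, measured 11.48, 11.57 and 11.70 in KO and 11.42, 11.12 and 11.13 in WT on its brighter probe set. The groups did not overlap, with KO above WT as in 5.94% of all probe sets. KO was at 0.36 relative to WT (SE 0.10, limma adjusted p = 0.330), and the other probe set of Cdkn1b gave 0.49. At the low end of the list were Gas1 (-0.05) and Cdkn2b (-0.19), the gene of the inhibitor p15. All KO arrays of Cdkn2b lay below all WT arrays, as in 8.08% of all probe sets. On average over the list the deviations were 0.11, 0.38 and 0.37 in KO replicates 1, 2 and 3 and -0.02, -0.01 and 0.03 in WT. Without Ndrg1, left out after its values were seen, it was at 0.07, 0.07 and 0.09 in KO and -0.01, 0.01 and -0.0041 in WT. The list's median moved to 0.07 when KO replicate 3 was left out, to 0.05 for WT replicate 1 and to 0.18 for WT replicate 3.

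**Figure D4:**
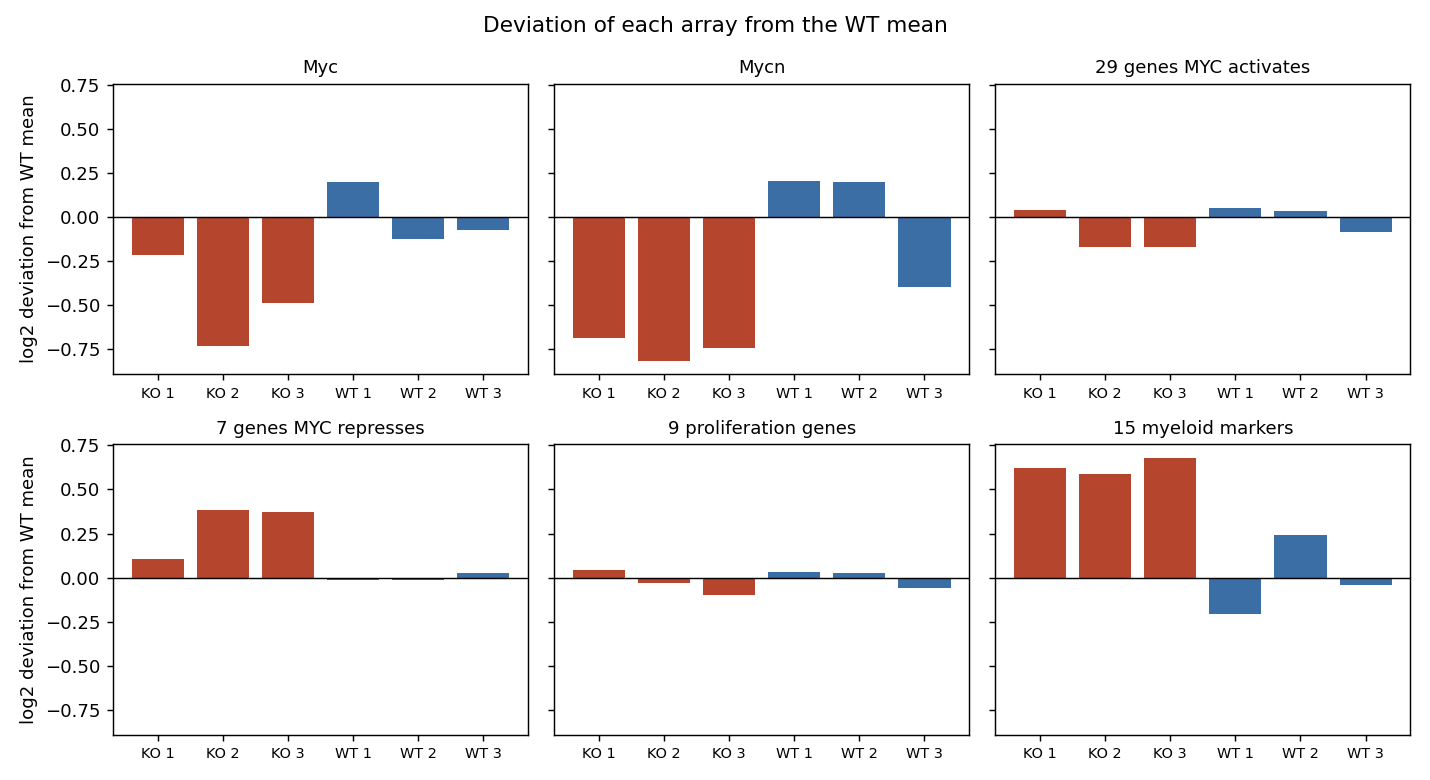
Log2 deviation of each KO (red) and WT (blue) array from the WT mean, for Myc and Mycn and as the mean over 29 genes activated by MYC, 7 genes lowered by MYC, 9 proliferation genes and 15 myeloid markers. KO replicate 1 is the least shifted KO array for Myc (-0.22) and for the activated genes (0.04), and the myeloid markers lie between 0.59 and 0.68 in the 3 KO arrays and between -0.20 and 0.24 in the WT arrays.

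Proliferation genes had KO means on both sides of their WT means. Of 9 measured 5 had higher and 4 lower KO means, against 44.2% and 55.8% of all probe sets. Their median log2 difference was 0.00 (-0.05 without KO replicate 1 or WT replicate 3). Unadjusted, 0 were at p under 0.05, and 0 passed in limma, against 9.22% and 0.119% of all probe sets. Mki67, the proliferation antigen Ki-67, was at 0.07 and the DNA replication helicase gene Mcm5 at 0.03. Rrm2, a subunit of ribonucleotide reductase, was lowest at -0.16 and the mitotic kinase gene Plk1 was at -0.10. All KO arrays of Rrm2 lay below all WT arrays, as in 8.08% of all probe sets.

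Cofactors that work with MYC, most of them coactivators, were measured by 13 genes. Of these 3 were lower at an unadjusted p under 0.05 and 0 higher, against 4.73% and 4.48% of all probe sets. None passed in limma, and the median was -0.05. Omitting KO replicate 3 brought this median to 0.0039, omitting WT replicate 1 to -0.02 and omitting WT replicate 3 to -0.07, and it was -0.03 on omission of either replicate 2. The lowest were Ruvbl1 and Ruvbl2, the paired helicases of the TIP60 and INO80 complexes, at -0.30 (SE 0.09, limma adjusted p = 0.352) and -0.24. Ruvbl1 measured 9.72, 9.45 and 9.53 in KO and 9.83, 9.92 and 9.86 in WT. Its KO arrays all lay below the WT arrays, as in 8.08% of all probe sets. The highest were Kat5, the TIP60 acetyltransferase itself, at 0.08, and Cdk9, the elongation kinase, at 0.04.

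The SIN3 corepressor that serves the MXD proteins and MNT had 17 measured genes with a median of -0.02, which was 0.02 without WT replicate 1 and -0.08 without WT replicate 3. One of them, Hdac1, was lower at an unadjusted p under 0.05, against 4.73% of all probe sets, and 0 passed in limma. Hdac1, a deacetylase of the complex, measured 11.94, 11.82 and 11.85 in KO and 12.11, 12.09 and 12.05 in WT, at -0.21 (SE 0.07, limma adjusted p = 0.419), with -0.22 on its other probe set. Brms1l was at -0.13, and Arid4b and the demethylase gene Kdm5a were highest at 0.22 and 0.15. The scaffold genes Sin3a and Sin3b gave 0.00 and -0.07, both singled out once their values had been seen.

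The 13 genes of the MGA complex PRC1.6 had a median of -0.04 (-0.08 without KO replicate 1 and -0.02 without KO replicate 3). Their KO means were lower in 10 and higher in 3, or 76.9% lower against 55.8% of all probe sets. The differences were small, from -0.21 to 0.12, and 0 passed in limma. Hdac1, which belongs to both lists, was the 1 gene with an unadjusted p under 0.05, against 9.22% of all probe sets. The methyl-histone adaptor gene Wdr5 was at -0.12, and Ring1 and Cbx1 were highest at 0.12 and 0.04. Germline genes that this complex is known to keep silent were dim, all below the array medians. Their 6 log2 differences lay between -0.05 and 0.14, with Slc25a31 and Ddx4 highest (0.14 and 0.03) and Mael and Dazl lowest (-0.04 and -0.05), and 0 had an unadjusted p under 0.05 or passed in limma.

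Among 15 genes that set the stability of the MYC protein, 2 were lower and 0 higher at an unadjusted p under 0.05. The shares over all probe sets were 4.73% and 4.48%. None of the 15 passed in limma, and their median was -0.07. Skp2, a ubiquitin ligase subunit that targets MYC and p27, measured 10.20, 10.17 and 10.10 in KO and 10.36, 10.38 and 10.33 in WT. All KO arrays of Skp2 lay below all WT arrays, as in 8.08% of all probe sets. The difference was -0.20 (SE 0.07, limma adjusted p = 0.438). The deubiquitinase gene Usp36 was at -0.19, and Pim2, a kinase that stabilises MYC, and Axin1, a scaffold for its phosphorylation, were highest at 0.23 and 0.14. The arrays show messenger RNA alone, and the level of the MYC protein was not measured.

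The list of inputs to Myc transcription included the targeted gene, Jup, whose effect on Myc was not tested. Jup measured 7.04, 7.06 and 7.27 in KO and 8.04, 7.62 and 8.51 in WT, which is 0.93 lower in KO on the log2 scale (limma adjusted p = 0.171). Its KO values were dim, below the array medians of 7.53 to 7.61. Ctnnb1, which encodes beta-catenin, gave -0.04 and its DNA-binding partners Lef1 and Tcf7l2 gave -0.01 and -0.04, with intervals of -0.22 to 0.14, -0.17 to 0.14 and -0.37 to 0.30. Stat5a and Stat5b, the signal transducers downstream of BCR-ABL1, gave 0.08 and 0.21. In both STAT5 genes all KO arrays were above all WT arrays, as in 5.94% of all probe sets, and neither passed (limma adjusted p = 0.806 and 0.563).

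In the Mondo branch the groups overlapped in each gene. Mlxip (MondoA) measured 11.73, 11.94 and 11.89 in KO and 11.83, 11.76 and 11.67 in WT, and Mlxipl (ChREBP) was dim at 7.12, 7.15 and 7.20 in KO and 6.90, 7.21 and 7.21 in WT. Their log2 differences were 0.10, with a 95% interval of -0.10 to 0.30, and 0.05, with one of -0.18 to 0.28. Txnip, the classic Mondo target that limits glucose uptake, measured 11.25, 11.59 and 11.62 in KO and 11.60, 11.01 and 11.39 in WT. Its log2 difference was 0.15, and that of Arrdc4 was 0.00 (limma adjusted p = 0.853 and 0.998).

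Among the lists of markers of other cell types, the myeloid list had the largest median log2 difference (0.64). Of 15 myeloid markers 13 had higher KO means, against 44.2% of all probe sets. In limma 3 (Mpo, Elane and Ctsg) rose, against 0.0505%, and 11 were higher at an unadjusted p under 0.05, against 4.48%. Whichever of the 6 arrays was omitted, Mpo still passed, at limma adjusted p of 0.00669 to 0.0326. Ctsg lost its call when KO replicate 3 or either of WT replicates 1 and 3 was omitted (up to adjusted p = 0.0996), and Elane kept its call without KO replicate 1 and lost it without each of the 5 others (up to adjusted p = 0.123). The mean log2 level of the 15 was 8.39 to 8.49 in KO arrays and 7.60 to 8.05 in WT arrays, a scale with no true 0. Mpo and Ctsg were the highest by t, at log2 differences of 1.605 and 1.14, and Csf1r and Cd14 the lowest, at -0.11 and -0.15. Their part in the differences of the network genes was not tested. In bulk samples a different number of cells of a type and a different RNA level per cell cannot be told apart. By deviation from the WT mean the markers were at 0.62, 0.59 and 0.68 in KO replicates 1, 2 and 3 and at -0.20, 0.24 and -0.04 in WT replicates 1, 2 and 3.

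Markers of the sorted cells were bright, at a mean log2 level of 12.67 to 12.73 in KO arrays and 12.66 to 12.71 in WT arrays over 9 B cell genes, while 7 T and NK markers averaged 6.10 to 6.36 in KO and 6.19 to 6.50 in WT. Of the 9 B cell markers measured, 0 passed in limma and 1, Enpep (-0.23), had an unadjusted p under 0.05, against 9.22% of all probe sets. The gate's other gene Ptprc and the B cell factor gene Pax5 were highest at 0.19 and 0.27, and Blnk was at -0.03. Among T and NK markers Klrb1c (log2 difference -0.79) and Cd8a (-0.22) were lowest and Cd3d (0.08) and Cd3g (0.10) highest by t. All KO arrays of Klrb1c lay below all WT arrays, as in 8.08% of all probe sets. None of the 7 passed in limma. Unadjusted, 2 were lower at p under 0.05, against 4.73% of all probe sets. Of 5 erythroid markers measured, Car1 rose by 0.74 (limma adjusted p = 0.0307), a call lost with any 1 of the 6 arrays left out (adjusted p of 0.0529 to 0.132). Klf1 was at 0.08, Tfrc at -0.07 and Epor at -0.12. WT replicate 2 alone carried Y-linked transcripts (Uty at 10.09, Xist at 6.20), and without it Myc and Mycn were at -0.54 and -0.65.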

How the data were processed

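RNA of 6 sorted samples was hybridised to 1-colour Affymetrix arrays. The deposited log2 values came from the authors' own run of RMA (Affymetrix Expression Console 1.1), as the submitters' processing notes record; the log2 scale was read from the values (2.26 to 14.56), and options, annotation and build are not given in the sources used here. RMA removes shifts common to an array and compresses changes of dim transcripts. Arrays give no read depth, and their number limits the precision.

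Of 35556 rows, 21789 with exactly 1 gene symbol in the platform annotation were tested; 1621 had several symbols and 12146 were unnamed here. Their gene IDs matched RefSeq GRCm38.p6 for 21698, and 0 symbols differed. KO was compared with WT by limma 3.58.1 in R 4.3.3 (lmFit, eBayes, prior degrees of freedom 4.33), two-sided, without covariate or filter, with Benjamini-Hochberg adjustment over all 21789 probe sets, threshold 0.05. Intervals are moderated 95% intervals, not adjusted. The fit was tested on simulated data. Array values correlated at r = 0.991 to 0.996 across probe sets. The labels do not say whether samples came from separate recipients, so p-values measure the spread between these samples.

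A gene entered by its probe set of highest mean. Besides the 10 members, 15 related lists were used, and of all 175 listed genes 163 were measured. Named are all members, all genes of the extended network, of the MYC transcription inputs and of the Mondo targets, and the 2 highest and 2 lowest by moderated t of each other list. The members and lists were chosen with earlier results of these data known. Motif letters were chosen at the sequence step. The comparison was repeated without dim probe sets (below the 40th percentile), on all rows, on 1 probe set per gene, on probe sets averaged per gene, with a trended robust prior, array weights, further quantile normalization, median centring or a block for the replicate number, at an adjusted p of 0.1, and with single arrays omitted.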

Additional observations from a re-analysis of the deposited data

How the results depend on the processing

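The number of calls over all probe sets, 11 higher and 15 lower in KO, depended on the setting, with 59 lower over all rows, 17 higher and 23 lower with a trended robust prior, 93 and 57 with array weights, 26 and 29 with median centring, and 25 and 33 at an adjusted p under 0.1. With each array left out it ranged from 1 to 41 higher and from 3 to 41 lower. Of the network genes 0 were called, except 1 lower (Mycn) without WT replicate 3, so that the count of lower members ranged from 0 to 1 over the arrays left out. The 9 members other than Mxd4 kept their sign in all 15 alternatives, and Mxd4 ranged from -0.063 to 0.141 over the arrays left out. Myc lay between -0.611 and -0.354 and Mycn between -0.948 and -0.649 over all alternatives, with limma adjusted p of 0.129 to 0.907 and 0.0205 to 0.518.

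The replicate block left Myc at -0.480 (limma adjusted p = 0.129) and Mycn at -0.750 (0.155) and called 0 members. Same-numbered KO and WT arrays correlated in their deviations from the group means at 0.104, -0.00431 and 0.275. KO replicates 1 and 3 correlated best with the WT array of their own number, and KO replicate 2 with WT replicate 1 (0.134). So few values cannot settle whether same-numbered samples were paired.

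Of 4 listed marker genes called with all arrays, Mpo, Ctsg and Elane kept their call with the block and Car1 did not (limma adjusted p = 0.0749), and Elane lost its call over all rows (limma adjusted p = 0.0565) and with further quantile normalization (0.0553). Differences near 0 turned sign. With array weights Mlxipl was at -0.0225, Ctnnb1 at 0.000449, Tcf7l2 at 0.0328, Arrdc4 at -0.0653, Blnk at 0.000636 and Cd3g at -0.152. With further quantile normalization Lef1 was at 0.00523 and Arrdc4 at -0.00265, and with median centring Arrdc4 was at -0.00998. Over the arrays left out, Mlxipl ranged from -0.0575 to 0.102, Tcf7l2 from -0.147 to 0.108, Arrdc4 from -0.0503 to 0.0670, Blnk from -0.0538 to 0.00536, Cd3g from -0.104 to 0.331, Dazl from -0.136 to 0.0169, Cd3d from -0.0384 to 0.191, Mcm5 from -0.0495 to 0.133, Mycl from -0.0203 to 0.0693, Ddx4 from -0.0132 to 0.0715, Gas1 from -0.162 to 0.0191, Txnip from -0.00658 to 0.288 and Cbx1 from -0.0259 to 0.0956. The cause was not tested in any of these cases, and each left-out array also made a group smaller.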
